A study of Mus musculus with 17 samples.

Results

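In the hippocampus, 10 genes that serve as markers of dentate granule cells were followed across 2 genotypes and 3 treatments. The markers were Prox1, Dsp, Trpc6, Tdo2, Lct, Calb1, Stxbp6, Glis3, Maml2 and Igfbp5. They were picked by name as markers of this cell type and were the 10 rows, of 55471 in the count table, whose Ensembl identifiers map to these symbols. All 10 had counts in every library. RNA was sequenced from the hippocampus of individual male C57BL/6 mice aged 3 to 6 months, in 17 libraries, 1 mouse each. CBP-ifKO mice lose functional CBP, the lysine acetyltransferase encoded by Crebbp, in excitatory neurons of the adult forebrain, because the tamoxifen-dependent recombinase creERT2 is driven there by a Camk2a promoter. Granule cells and pyramidal cells are both among the recombined neurons, and the other cells of the tissue keep the intact gene. Controls were littermates without the recombinase according to the methods of the study, although their label descriptions also mention the creERT2 line, and mice of both genotypes had received tamoxifen. Sal mice were never kindled and received saline. PTZ0 and PTZ45 mice went through a kindling protocol of repeated doses of pentylenetetrazole (PTZ), which causes seizures by blocking inhibitory GABA receptors. The study reports that controls came to have seizures under this protocol, whereas no CBP-ifKO mouse reached the stage of progressive seizures. In these groups the genotypes therefore differ in seizure history as well. A week after the protocol the mice were given saline (PTZ0) or 45 mg/kg PTZ (PTZ45), 45 min before the hippocampus was taken. There were 3 libraries in each of the 6 groups except Control PTZ45, which had 2.

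Granule cells are the principal neurons of the dentate gyrus. They receive the cortical input to the hippocampus and send it on to CA3 through the mossy fibres, and they are the hippocampal neurons that continue to be generated in adult life. Their identity depends on the homeodomain factor Prox1, and mature granule cells contain the calcium-binding protein calbindin, encoded by Calb1. The other 8 markers are enriched in the granule cell layer and range from a desmosomal protein to metabolic enzymes. Not all of them are exclusive to granule cells, since Prox1 is also found in some interneurons and Calb1 in some pyramidal cells and interneurons. CBP is a coactivator recruited by many transcription factors, CREB among them.

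The libraries held between 5831992 and 18735643 counts. The least abundant marker, Tdo2, was covered by 17 to 133 raw counts a library. Levels are given below as normalized counts, that is, raw counts divided by the DESeq2 size factor of the library. The targeted gene and the transgene separated the genotypes in every library. Crebbp ranged from 1824 to 2429 normalized counts in controls and from 1061 to 1337 in CBP-ifKOs, and Esr1, which shares its sequence with creERT2, from 41.0 to 77.8 and from 703 to 941. The activity-regulated gene Fos was at 2915 and 2483 normalized counts in Control PTZ45, at 163 to 288 in CBP-ifKO PTZ45 and at 13.4 to 62.4 elsewhere, and Npas4 at 3293 and 3946, at 109 to 212 and at 11.5 to 75.9. Sequencing lane nearly coincided with genotype. Control Sal and Control PTZ0 were run in lane 3, CBP-ifKO PTZ0 and CBP-ifKO PTZ45 in lane 5, and only lane 4 held both genotypes, as Control PTZ45 and CBP-ifKO Sal. In 5 libraries a list of 6 choroid plexus genes summed to between 10813 and 44317 normalized counts, against 438 to 1146 in the other 12. These were Control Sal replicate 2, Control PTZ0 replicate 2, CBP-ifKO Sal replicate 1, CBP-ifKO PTZ0 replicate 3 and CBP-ifKO PTZ45 replicate 2. None of the 6 genes was at 0 in any library.

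To see which markers the libraries contain most of, levels were compared per kilobase of exon. Calb1 (chromosome 4, 15881264 to 15908064, plus strand) had the highest level in controls, at 381 ± 16.5 normalized counts per kilobase (SD, n = 8). Igfbp5 (chromosome 1, 72857932 to 72874884, minus strand) followed at 233 ± 19.03, and Stxbp6 (chromosome 12, 44852484 to 45074709, minus strand) at 215 ± 16.02. Trpc6 (chromosome 9, 8544142 to 8680741, plus strand) stood at 179 ± 13.2 and Prox1 (chromosome 1, 190118035 to 190170714, minus strand) at 163 ± 17.8. Dsp (chromosome 13, 38151294 to 38198577, plus strand) reached 98.2 ± 14.3, Lct (chromosome 1, 128284756 to 128328318, minus strand) 80.0 ± 12.1 and Maml2 (chromosome 9, 13297957 to 13709388, plus strand) 77.2 ± 8.59. Glis3 (chromosome 19, 28258851 to 28680077, minus strand) had 60.9 ± 6.47 and Tdo2 (chromosome 3, 81957090 to 81976202, minus strand) 28.1 ± 4.42. The control ranges of neighbours in this order overlapped except between Calb1 and Igfbp5, between Prox1 and Dsp and between Glis3 and Tdo2. In CBP-ifKOs the order at the top was Calb1, at 400.0 ± 35.5 (SD, n = 9), then Igfbp5, at 329 ± 39.9, and Trpc6 had dropped from the fourth place to a level of 105 ± 8.92, below Prox1, Stxbp6 and Lct. Positions are those of GENCODE M21 on GRCm38, and each value sums the reads on all annotated exons of the gene. Prox1, Dsp, Trpc6, Stxbp6, Glis3 and Maml2 each overlap at least 1 annotated gene on the opposite strand, from which their reads cannot be told apart, because no source used here says whether counting took account of the strand.

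**Figure D1:**
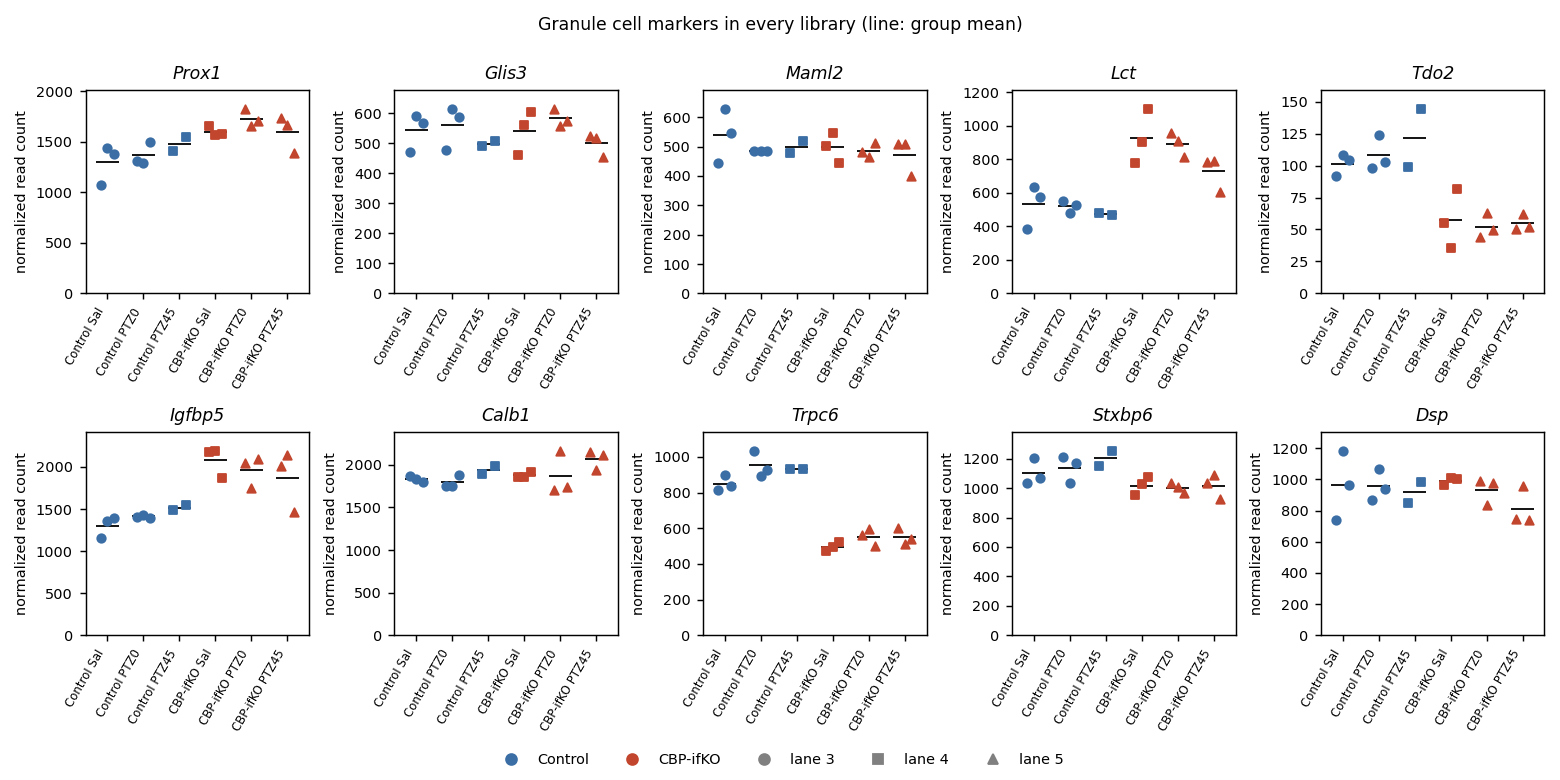
Normalized read counts (vertical axis, starting at 0) of the 10 markers in each of the 17 libraries, by group; points are libraries, lines are group means, colour is genotype and shape is sequencing lane. Trpc6 and Tdo2 separate all 8 control libraries from all 9 CBP-ifKO libraries, whereas Glis3, Maml2 and Dsp occupy the same range in both genotypes.

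The main question was whether loss of CBP changed the granule cell markers, and whether they changed together. They did not move as a block. Over all treatments, 6 of the 10 markers differed between genotypes, 3 in each direction: Lct, Igfbp5 and Prox1 were higher in CBP-ifKOs and Tdo2, Trpc6 and Stxbp6 were lower (Wald test of DESeq2 with treatment as a term, adjusted p under 0.05). Among the 18682 genes tested in this comparison, 19.3% were called, 7.76% higher and 11.5% lower. Scaled to 14 other granule genes in place of all genes, which raised the median of all genes to 0.33, 8 markers were called higher and 2, Trpc6 and Tdo2, lower, and Stxbp6 turned from -0.18 to 0.13. Under that scaling 51.3% of 24003 genes were called higher and 1.02% lower. The median log2 fold change of the 10 markers was -0.01, that of all genes tested 0.01. Summed over the 10 markers, the level was 9279.8 ± 567 normalized counts in controls (SD, n = 8, 8083 to 9902) and 9945 ± 489.7 in CBP-ifKOs (SD, n = 9, 8688 to 10266). A change in the number of granule cells and a change in marker RNA in each granule cell cannot be told apart in RNA from whole hippocampus, so each of these values describes the tissue.

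Of the 3 markers that act in the nucleus, Prox1 was called. Prox1 is required for granule cells to acquire and keep their identity. In controls its normalized counts were 1069.8, 1441 and 1381 in Sal, 1312, 1291 and 1498 in PTZ0 and 1409 and 1554 in PTZ45. In CBP-ifKOs they were 1653, 1567 and 1582 in Sal, 1829.9, 1655 and 1708 in PTZ0 and 1740.1, 1664 and 1389 in PTZ45. All CBP-ifKO libraries but CBP-ifKO PTZ45 replicate 3, the lowest at 1389, were above every control library. Over all treatments the difference was 0.26 on the log2 scale (SE 0.06, adjusted p 0.000439). Glis3, a zinc-finger transcription factor, ran from 472 to 614 with a median of 539 in controls and from 456 to 616 with a median of 558 in CBP-ifKOs. Its log2 fold change was 0.02 with a 95% interval of -0.11 to 0.15. Maml2, a mastermind-like coactivator of Notch signalling, lay between 446 and 629 in controls (median 486) and between 399 and 548 in CBP-ifKOs (median 503), a log2 fold change of -0.06 with an interval of -0.20 to 0.07. For both genes the ranges of the genotypes overlapped widely.

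The 2 markers that encode metabolic enzymes changed in opposite directions. Lct, the lactase that splits milk sugar in the gut, and a marker of granule cells in the brain, was the marker with the greatest rise. Control libraries had 383, 633 and 579 normalized counts in Sal, 550.4, 479 and 529 in PTZ0 and 479 and 467 in PTZ45. The CBP-ifKO libraries had 779.6, 903 and 1103 in Sal, 956, 912 and 816 in PTZ0 and 788, 793 and 608 in PTZ45. Only CBP-ifKO PTZ45 replicate 3, at 608, fell within the control range, under the 633 of Control Sal replicate 2. This was a 1.68-fold rise, 0.75 on the log2 scale (SE 0.09, adjusted p 8.45e-15).

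Tdo2, which encodes the tryptophan 2,3-dioxygenase that opens the kynurenine pathway, showed the greatest fall. Its normalized counts in controls were 91.9, 108 and 104 in Sal, 98.3, 124 and 103 in PTZ0 and 99.05 and 145 in PTZ45. In CBP-ifKOs they were 55.1, 35.3 and 82.0 in Sal, 43.8, 63.0 and 49.7 in PTZ0 and 50.5, 62.0 and 51.9 in PTZ45. No CBP-ifKO library reached the lowest control library, and the highest of them, CBP-ifKO Sal replicate 3, came within 10 normalized counts of it. Its log2 fold change of -0.96 (SE 0.13, adjusted p 6.09e-11) is a ratio of 0.513. At these counts the value is the least precise of the 10.

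Among the markers of signalling and calcium handling, Trpc6 fell, Igfbp5 rose and Calb1 was not called. Trpc6 encodes a cation channel of the plasma membrane that is opened by diacylglycerol. Controls had 817, 896 and 837 normalized counts in Sal, 1036, 895 and 926 in PTZ0 and 929 and 931 in PTZ45. CBP-ifKOs had 471, 496 and 524 in Sal, 561, 599 and 499 in PTZ0 and 599, 513 and 540.0 in PTZ45. The genotypes were separated by more than 200 normalized counts, between 599 and 817. The ratio was 0.585, or -0.77 on the log2 scale (SE 0.05, adjusted p 1.17e-51). Trpc6 and Tdo2 were the 2 markers whose 17 libraries did not overlap between genotypes, both lower in CBP-ifKOs, a pattern that 2.16% of the genes tested shared; 0.83% were higher without overlap, and no marker was.

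Igfbp5, a secreted protein that binds insulin-like growth factors, was higher. In controls it had 1158, 1358 and 1393 normalized counts in Sal, 1411, 1431 and 1396 in PTZ0 and 1487 and 1549 in PTZ45. In CBP-ifKOs it had 2183, 2195 and 1873 in Sal, 2047, 1748 and 2099.8 in PTZ0 and 2007, 2144 and 1469 in PTZ45. CBP-ifKO PTZ45 replicate 3 was again the exception, at a level within the control range, and the other 8 CBP-ifKO libraries were above all controls. The rise was 1.41-fold, or 0.50 on the log2 scale (SE 0.07, adjusted p 6.04e-10). Calb1 ranged from 1749 to 1990.5 in controls, with a median of 1850.4, and from 1708 to 2168 in CBP-ifKOs, with a median of 1921. Its log2 fold change of 0.06 had the narrowest interval of the markers, from -0.03 to 0.15.

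The remaining pair comprises a protein of cell junctions and a regulator of membrane fusion. Dsp encodes desmoplakin, which ties desmosomes to intermediate filaments. It ranged from 738 to 1184 normalized counts in controls (median 949.8) and from 737 to 1008 in CBP-ifKOs (median 963), and its log2 fold change was -0.05 with an interval of -0.20 to 0.11. Stxbp6 encodes amisyn, which binds SNARE proteins. It ranged from 1032 to 1255 in controls (median 1159) and from 926 to 1086 in CBP-ifKOs (median 1025). Its difference of -0.18 on the log2 scale (SE 0.05, adjusted p 0.00311) was the smallest of the 6 called, and the ranges overlapped.

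**Figure D2:**
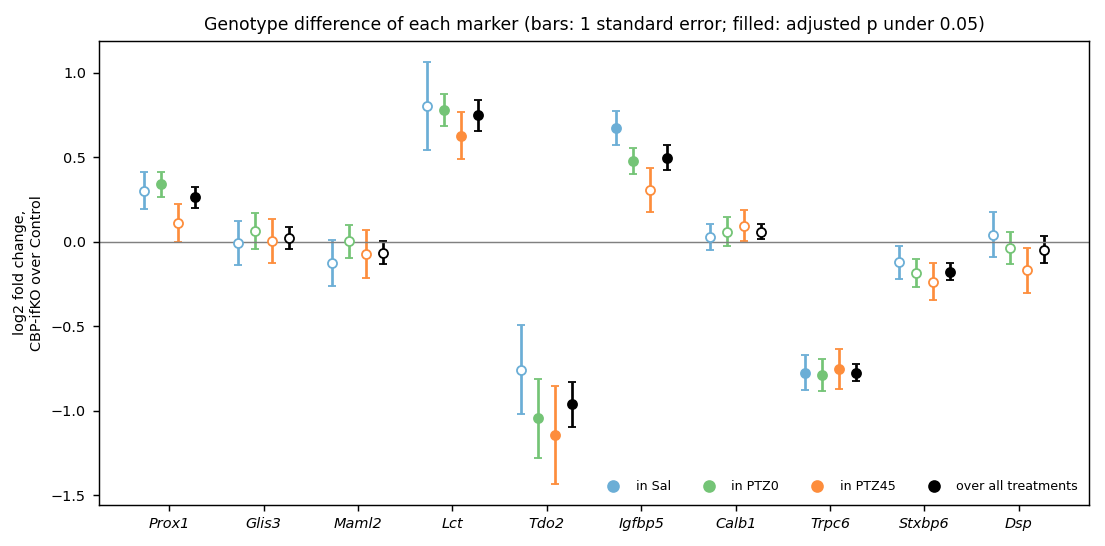
Log2 fold change of CBP-ifKO over Control (vertical axis) for each marker, within each treatment and over all treatments; bars are 1 standard error and filled symbols have an adjusted p under 0.05. Trpc6 lies between -0.79 and -0.75 in all 4 comparisons, and Glis3, Maml2, Calb1 and Dsp stay between -0.17 and 0.10.

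Within single treatments, fewer markers passed the test. In each treatment the 2 genotypes were run in different lanes, so lane and genotype cannot be told apart in these comparisons. In Sal mice, which had never been given PTZ, Trpc6 (log2 fold change -0.78, SE 0.10, adjusted p 1.48e-10) and Igfbp5 (0.67, SE 0.10, adjusted p 1.01e-08) were called, 2 of 10 against 2.04% of 15004 genes (0.267% higher and 1.77% lower). Lct, Tdo2 and Prox1 also had no overlap between the 3 control and the 3 CBP-ifKO libraries, but their adjusted p-values were 0.0827, 0.129 and 0.143, where 10.1% of the genes tested were higher and 11.1% lower without overlap. In PTZ0 mice 5 of 10 were called, against 6.68% of 12752 genes (1.43% higher and 5.25% lower). Lct (0.78, SE 0.09, adjusted p 1.59e-13), Igfbp5 (0.48, SE 0.08, adjusted p 8.15e-08) and Prox1 (0.34, SE 0.08, adjusted p 0.000513) were higher, and Trpc6 (-0.79, SE 0.10, adjusted p 1.59e-13) and Tdo2 (-1.04, SE 0.23, adjusted p 0.000465) were lower. The same 5 had no overlap between the PTZ0 libraries, as did 13.6% of genes higher and 15.2% lower. Without the libraries of high choroid plexus level, 1 in each PTZ0 group, Prox1 and Tdo2 were no longer called in PTZ0, at adjusted p-values of 0.242 and 0.321 and log2 fold changes of 0.31 and -0.90.

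In PTZ45 mice, with 2 control libraries, 3 of 10 were called, against 3.07% of 15224 genes (0.25% higher and 2.82% lower). They were Trpc6 (-0.75, SE 0.12, adjusted p 4.04e-08), Tdo2 (-1.14, SE 0.29, adjusted p 0.00477) and Lct (0.63, SE 0.14, adjusted p 0.000529). These 3 and Stxbp6 had no overlap between the PTZ45 libraries, 1 higher and 3 lower in CBP-ifKOs, as did 15.5% of genes higher and 18.3% lower. The call on Trpc6 held whichever library was left out, with adjusted p-values up to 0.00192. Without a Control PTZ45 library 1 control remains, which these fits assume to vary like the CBP-ifKO libraries. That on Lct was lost without either Control PTZ45 library (0.65 on the log2 scale and adjusted p 0.0672 without replicate 1, 0.61 and 0.0758 without replicate 2), and that on Tdo2 without Control PTZ45 replicate 2 (0.683), CBP-ifKO PTZ45 replicate 1 (0.0751) or CBP-ifKO PTZ45 replicate 3 (0.055), at log2 fold changes from -1.11 to -0.85, and with the replicate number as a block (0.792, at -1.10). Igfbp5 and Prox1 had log2 fold changes of 0.31 and 0.11 in PTZ45, with adjusted p-values of 0.275 and 0.835. Whether the genotype difference was the same in PTZ45 and Sal mice was tested as an interaction of genotype and PTZ45 over Sal. These treatments differ in the repeated doses as well as in the last injection. No marker was called by DESeq2, against 0.329% of 20945 genes. At an unadjusted p under 0.05 there was 1, Igfbp5, with an interaction of -0.37 on the log2 scale (SE 0.17, p 0.0327 by the Wald test of DESeq2, adjusted p 1.0), and edgeR also called 0. Without CBP-ifKO PTZ45 replicate 3 the interaction of Igfbp5 was -0.22 (SE 0.14).

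Because lane and genotype nearly coincide, the genotype difference was also estimated with lane as a term and within lane 4 alone. These fits are not separate checks. Only lane 4 held both genotypes, so the fit with lane as a term rests on the same contrast within lane 4. It adjusts that contrast by the treatment differences within the other lanes. This takes treatment effects to be the same in both genotypes, which that fit cannot test. With lane as a term, Trpc6 was the marker still called, at -0.74 (SE 0.16, adjusted p 0.00163), while calls over all genes dropped from 1449 higher and 2157 lower to 3 and 128. Lct (0.66, SE 0.27), Igfbp5 (0.51, SE 0.20) and Tdo2 (-0.84, SE 0.43) kept most of their size with standard errors about 3 times as wide, and had adjusted p-values of 0.449, 0.411 and 0.769. Prox1 dropped to 0.08 (SE 0.18). In lane 4, where CBP-ifKO Sal and Control PTZ45 also differ in treatment, Trpc6 (-0.91, SE 0.12, adjusted p 9.35e-11), Lct (0.97, SE 0.15, adjusted p 3.51e-08) and Igfbp5 (0.45, SE 0.11, adjusted p 0.00201) were called. Tdo2 was at -1.03 (SE 0.33, adjusted p 0.0552), and Prox1 at 0.11 (SE 0.10, adjusted p 0.757). Over all genes, 55 were called higher and 473 lower within lane 4. Stxbp6 was at -0.17 (SE 0.15, adjusted p 1.0) with lane as a term and at -0.24 (SE 0.11, adjusted p 0.317) in lane 4. For Prox1, Stxbp6 and Tdo2, which were called in neither fit, lane and genotype cannot be told apart.

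The markers were also compared with each other within each library, and their ratios differed between genotypes. The log2 level of each marker relative to the mean log2 level of the other 9 removes any factor common to all 10 in a library. On this scale Lct rose from -0.61 ± 0.18 in controls (SD, n = 8) to 0.25 ± 0.19 in CBP-ifKOs (SD, n = 9), Igfbp5 from 1.01 ± 0.09 to 1.61 ± 0.18, and Prox1 from 0.97 ± 0.10 to 1.32 ± 0.10. Each of these 3 was without overlap between genotypes, and CBP-ifKO PTZ45 replicate 3, the exception in the plain levels, no longer lay within the control range. Trpc6 went from 0.32 ± 0.13 to -0.48 ± 0.16 and Tdo2 from -3.08 ± 0.18 to -4.13 ± 0.35, also without overlap. The other 5 overlapped, with differences between -0.13 (Stxbp6) and 0.13 (Calb1). For each marker the other 9 include Trpc6, Tdo2 or both, which were lower in CBP-ifKOs, so the reference can itself differ between genotypes. Prox1 differed by 0.35 on this scale and by 0.26 in plain levels, and its closest libraries were at 1.09 (control) and 1.14 (CBP-ifKO). Lane was not taken into account on this scale. Measured against the mean of the 10 markers, 0.583% of the 18682 genes tested were higher and 0.61% lower in all CBP-ifKO libraries. The mean of the 10 centred log2 values was 0.03 ± 0.10 in controls and -0.02 ± 0.08 in CBP-ifKOs, with ranges that overlapped. How far the share of granule cells and the RNA of single genes contribute to these ratios was not tested.

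The sequences upstream of the start sites of the 4 markers with the largest genotype differences are given here, 2 that fell (Trpc6 and Tdo2) and 2 that rose (Lct and Igfbp5), since CBP acts at regulatory DNA. Each is the 250 bases before the RefSeq start site on GRCm38.p6, 5′ to 3′ on the strand of the gene, with motif matches in capitals.
Trpc6 promoter, chr9:8543892-8544141, plus strand: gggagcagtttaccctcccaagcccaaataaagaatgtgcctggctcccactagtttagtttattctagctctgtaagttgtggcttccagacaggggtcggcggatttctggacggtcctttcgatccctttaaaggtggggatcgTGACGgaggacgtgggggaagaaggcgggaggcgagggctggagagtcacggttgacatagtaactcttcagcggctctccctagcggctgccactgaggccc
Tdo2 promoter, chr3:81975729-81975978, minus strand: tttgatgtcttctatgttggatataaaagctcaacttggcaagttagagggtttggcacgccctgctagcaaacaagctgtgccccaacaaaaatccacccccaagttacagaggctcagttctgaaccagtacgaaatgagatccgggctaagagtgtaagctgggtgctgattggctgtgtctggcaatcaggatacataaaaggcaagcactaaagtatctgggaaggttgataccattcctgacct
Lct promoter, chr1:128328319-128328568, minus strand: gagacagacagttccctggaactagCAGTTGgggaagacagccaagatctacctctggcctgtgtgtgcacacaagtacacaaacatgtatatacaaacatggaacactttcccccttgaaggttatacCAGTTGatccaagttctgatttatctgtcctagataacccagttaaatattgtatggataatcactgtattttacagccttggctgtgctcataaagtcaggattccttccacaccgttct
Igfbp5 promoter, chr1:72874866-72875115, minus strand: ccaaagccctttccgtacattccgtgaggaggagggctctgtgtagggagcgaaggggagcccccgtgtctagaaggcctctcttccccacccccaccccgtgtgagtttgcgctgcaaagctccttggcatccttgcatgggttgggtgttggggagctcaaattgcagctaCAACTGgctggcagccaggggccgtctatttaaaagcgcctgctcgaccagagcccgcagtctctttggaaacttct

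Both strands were searched for the cyclic AMP response element bound by CREB (TGACGTCA), the core of that element (TGACG, which every full element contains), the AP-1 site (TGANTCA) and the E-box (CANNTG), which is bound by basic helix-loop-helix factors. Of 32851 upstream windows of the same length in RefSeq, 1.55% held the full element, 17.8% the core, 6.75% the AP-1 site and 66.2% an E-box. The Trpc6 window held 1 core, whose first base lies 103 bases before the start site. The Tdo2 window held none of the 4 motifs. It lies inside the GENCODE span of the gene, whose outer end is not the RefSeq start site, and no window at that outer end was searched. In the window of Lct there were 2 E-boxes, and in that of Igfbp5 there was 1. Among the upstream windows of the other markers, 1 of 2 for Prox1, both for Maml2 and those of Stxbp6 and Glis3 held E-boxes and nothing else, that of Dsp held no match, and Calb1 was not among those searched. A match of these letters describes the window and not binding.

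Further genes known from granule cells were examined beside the 10. Of 14 other granule genes, 9 were called over all treatments, 7 lower and 2 higher, where 11.5% of all genes were lower and 7.76% higher, with a median log2 fold change of -0.14. Without the 5 libraries of high choroid plexus level it was 5 lower and 1 higher, where 7.86% of all genes were lower and 3.94% higher. The lower ones were led by C1ql2 (-1.66, SE 0.10, adjusted p 2.02e-59), a C1q-like protein secreted at mossy fibre synapses, and Pdyn (-1.14, SE 0.12, adjusted p 4.66e-20), the precursor of dynorphin. C1ql2 and Pdyn are named by the study, in part from these libraries, and are not independent of them. The higher ones were Lrrtm4 (0.17, SE 0.05, adjusted p 0.00182), a postsynaptic adhesion protein, and Ahcyl2 (0.12, SE 0.04, adjusted p 0.0146). Neither was called within lane 4, where Lrrtm4 was at -0.00706 and Ahcyl2 at 0.16, or with lane as a term, at 0.07 and 0.08, and Ahcyl2 was not called without the libraries of high choroid plexus level (adjusted p 0.0781). C1ql2 had 250 to 367 normalized counts in controls and 74.7 to 137 in CBP-ifKOs, and was the gene of this list still called with lane as a term. Pdyn lay between -1.20 and -0.69 over 26 alternatives, with adjusted p-values by DESeq2 or edgeR of up to 0.88. Of 7 genes of immature granule cells, 6 had an adjusted p and 3 were called, all lower, where 11.5% of all genes were lower: Drd1 (-0.74, SE 0.11), Calb2 (-0.68, SE 0.10) and Sox11 (-0.53, SE 0.08). With lane as a term none of the 3 was called by DESeq2: Drd1 was at -0.31 (SE 0.36, adjusted p 1.0), Calb2 at -0.58 (SE 0.31, adjusted p 0.813) and Sox11 at -0.77 (SE 0.23, adjusted p 0.0714).

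Markers of the other cells of the tissue gave the following values beside these. Of 6 CA1 pyramidal cell genes 5 were lower and none higher, with a median of -0.46, and Wfs1 at -1.11 (SE 0.07), Dcn at -0.71 (SE 0.21) and Mpped1 at -0.49 (SE 0.06) were the 3 with the largest values. Of 5 CA3 genes 2 were lower, Cpne4 (-0.44, SE 0.05) and Grik4 (-0.18, SE 0.06), and of 4 CA2 genes 2 were lower (Rgs14 and Amigo2) and 1 higher (Map3k15). The calls on Map3k15 and Grik4 were lost in some fits. Among these were the DESeq2 fits without CBP-ifKO Sal replicate 1 for Map3k15 (adjusted p 0.108) and without Control PTZ45 replicate 1 for Grik4 (0.0549). Lower calls were made on 2 of 7 interneuron genes (Sst and Gad1), 3 of 7 astrocyte genes (Aldoc, Slc1a3 and Gja1) and 1 of 7 vascular genes (Rgs5), where 11.5% of all genes were called lower. With lane as a term, 1 CA1 and 1 CA2 gene were still called lower and none of the CA3, interneuron, astrocyte or vascular genes. None of 3 mossy cell, 6 oligodendrocyte, 7 microglia or 3 thalamus genes was called. The summed level of the interneuron list ran from 6578 to 6929.6 normalized counts in controls and from 5898 to 6608 in CBP-ifKOs, and that of the CA1 list from 4852 to 5666 and from 3408 to 4192. The choroid plexus list ran from 438 to 24466 in controls and from 449.7 to 44317 in CBP-ifKOs, and none of its genes was called, although only 1 of the 6 had an adjusted p. Without the 5 libraries of high choroid plexus level, 6 of the 10 granule markers were called, 3 higher and 3 lower, against 3.94% of 15846 genes higher and 7.86% lower. The part of these other cells in the marker levels was not tested.

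**Figure D3:**
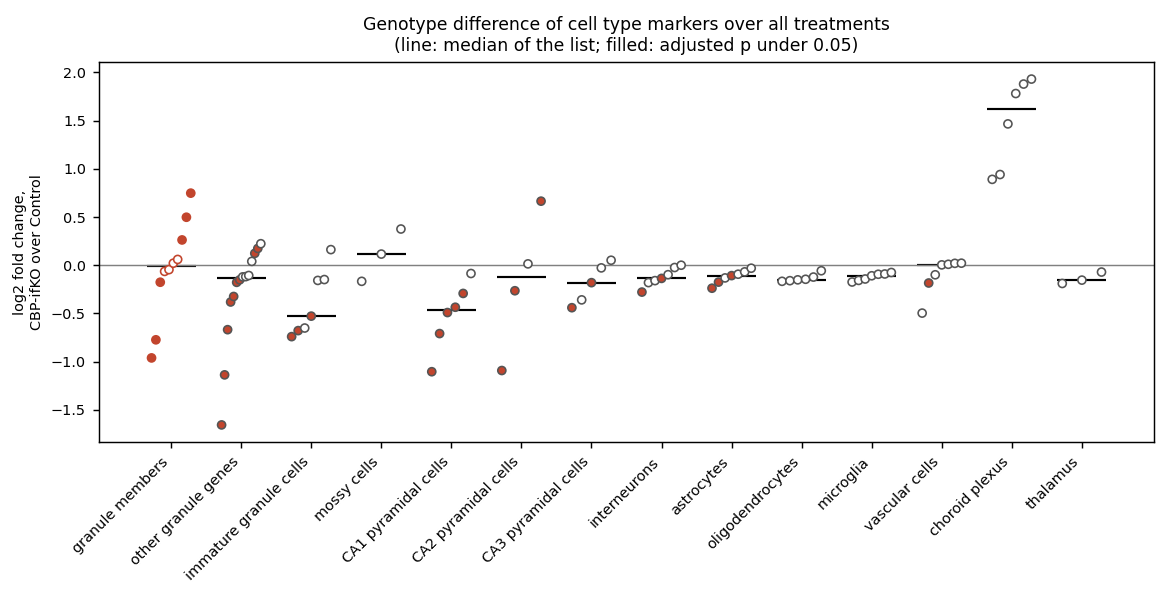
Log2 fold change of CBP-ifKO over Control over all treatments (vertical axis) for the genes of 14 lists of cell type markers; points are genes, lines are list medians and filled points have an adjusted p under 0.05. The 10 granule markers extend on both sides of 0, from -0.96 to 0.75, around a median of -0.01, whereas no gene of the CA1 list lies above 0 under this scaling.

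The treatments were compared within each genotype to see whether the markers responded to the repeated doses or to the last injection of PTZ. In controls no marker was called by DESeq2 in PTZ45 against Sal, PTZ45 against PTZ0 or PTZ0 against Sal, comparisons in which 1.17%, 1.25% and 0.00843% of genes were called. In CBP-ifKOs none was called either, against 0.294%, 0.0872% and 0.0112%. At an unadjusted p under 0.05 there were 1, 0 and 1 markers in controls and 2, 2 and 0 in CBP-ifKOs, in the same order, and edgeR called 0 in each. The comparisons of a genotype share libraries, so they are not independent of each other. In controls the PTZ45 against Sal differences ran from -0.17 for Lct, with a 95% interval of -0.72 to 0.38, to 0.26 for Tdo2, with an interval of -0.21 to 0.73. The marker with an unadjusted p under 0.05 was Igfbp5, at 0.22 (interval 0.02 to 0.42; 0.14 without Control Sal replicate 1), and Fos in the same comparison was at 6.08 (SE 0.48). PTZ0 against Sal, in which all libraries come from lane 3, gave differences between -0.15 (Maml2) and 0.17 (Trpc6, at 0.10 without Control PTZ0 replicate 1).

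In CBP-ifKOs the values under an unadjusted p of 0.05 were all below 0 in PTZ45, where replicate 3 was the lowest library for Lct, Dsp and Glis3. Lct was at -0.35 in PTZ45 against Sal (interval -0.62 to -0.08, adjusted p 0.707 by DESeq2) and at -0.29 in PTZ45 against PTZ0 (interval -0.51 to -0.07, adjusted p 1.0), the latter within lane 5. Dsp was at -0.29 against Sal (interval -0.51 to -0.06, adjusted p 0.731) and Glis3 at -0.22 against PTZ0 (interval -0.43 to -0.01, adjusted p 1.0). Without CBP-ifKO PTZ45 replicate 3, Lct was at -0.24 against Sal and -0.18 against PTZ0, Dsp at -0.22 and Glis3 at -0.16. Without CBP-ifKO Sal replicate 3, Lct was at -0.19 against Sal. Calb1 had intervals of -0.02 to 0.30 against Sal and -0.04 to 0.33 against PTZ0. For Tdo2 the intervals were wide, from -0.73 to 0.49 against Sal with 3 mice in each group.

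**Figure D4:**
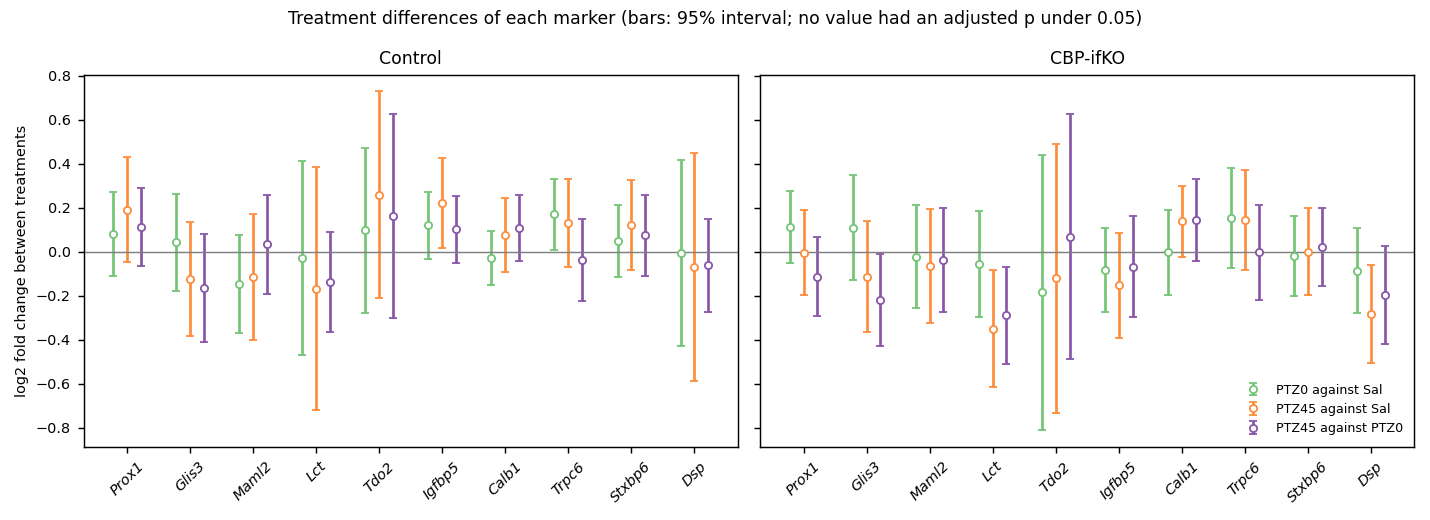
Log2 fold change between treatments (vertical axis) for each marker in Control (left) and CBP-ifKO (right); bars are 95% intervals, and no marker was called in any of the 6 comparisons. In CBP-ifKO the intervals of Tdo2 are the widest, reaching from -0.81 to 0.62.

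Finally, the spread between mice of the same group was examined. Several markers deviated together. Over the 45 pairs of markers, the Pearson correlation of the deviations from the group mean over the 17 libraries had a median of 0.37 and was above 0 in 35 pairs. For Prox1, Dsp, Lct, Stxbp6, Glis3, Maml2 and Igfbp5, a set of 7 chosen after their values were seen, all 21 pairs were between 0.34 and 0.84, with a median of 0.59. The 9 pairs with Calb1 had a median of -0.11. These correlations describe 17 libraries that share the size factors and have no test. The mean deviation over the 10 markers was largest in 3 libraries. In Control Sal replicate 1 the markers were on average 0.19 below their group mean on the log2 scale, with 9 of 10 below it and Lct the lowest at -0.44. Control Sal replicate 2 was 0.15 above, with 9 of 10 above it and Dsp the highest at 0.33. In CBP-ifKO PTZ45 replicate 3 the mean deviation was -0.15, with 9 of 10 below and Igfbp5 the lowest at -0.33. The 2 libraries of Control PTZ45, which mirror each other about their mean, were 0.06 below and above it, in 9 of 10 markers each. In Control Sal replicate 1 and CBP-ifKO PTZ45 replicate 3 the marker that did not go along was Calb1, at 0.03 in both.

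**Figure D5:**
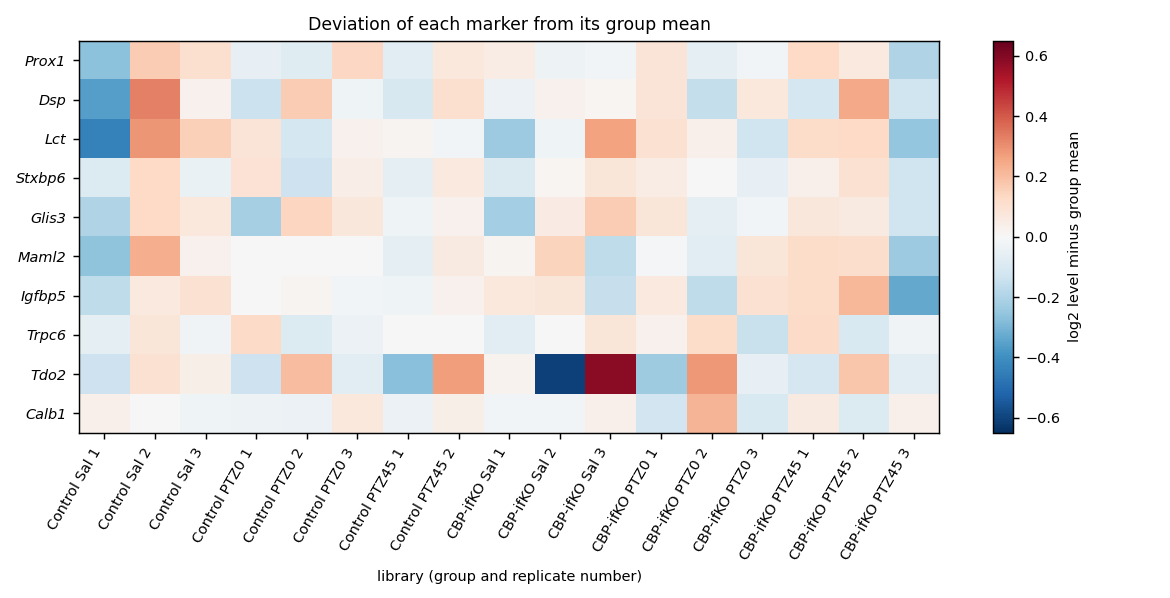
Log2 level of each marker minus its group mean (colour) in the 17 libraries, ordered by group and replicate number. Control Sal 1 and CBP-ifKO PTZ45 3 are low in 9 of 10 markers each and Control Sal 2 is high in 9 of 10, as are, with smaller deviations, Control PTZ45 1 and Control PTZ45 2 (low and high in 9 of 10), and the extremes of the map are Tdo2 in CBP-ifKO Sal, at -0.61 in replicate 2 and 0.59 in replicate 3.

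The genes whose pattern was most like that of the 10 markers were sought among the 13041 genes that averaged 50 normalized counts or more. Over all 17 libraries the highest Pearson correlations with the mean of the 10 centred log2 values were those of Adcy1 (0.78, Spearman 0.80), Sema5a (0.77, Spearman 0.64), Pcdhgb5 (0.72, Spearman 0.49), Gprin1 (0.72, Spearman 0.60) and Ppp1r3e (0.70, Spearman 0.30). Sema5a is also on the list of other granule genes. For the deviations from the group means they were Adarb2 (0.88, Spearman 0.83), Erich5 (0.86, Spearman 0.78), Epha7 (0.85, Spearman 0.83), Plekha5 (0.84, Spearman 0.82) and Trpm4 (0.84, Spearman 0.84). No gene was in both sets of 5. As the best of 13041 values over 17 points, these are given as a description.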

How the data were processed

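Total RNA from the hippocampus was sequenced by the authors as single-end reads of 50 bases on a HiSeq2500. The authors deposited raw counts, whole numbers of reads for each gene. According to the submitters' processing notes and the methods of the study, reads were checked with FastQC 0.11.8, trimmed with Trim Galore 0.6.4, aligned with STAR 2.6.1 to mm10 (GRCm38), filtered on mapping quality and counted over Ensembl exons with Rsubread. The strand setting of the counting is not given in the sources used here. Of 18 count columns, 1 matched no sample and was not used.

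The markers and the lists of genes were chosen with earlier results of these data known. The text names all 10 markers, Crebbp, Esr1, Fos and Npas4 as checks and, from each other list, at most 3 called genes per direction and comparison, by size, of which 1 gene is not reported here. Genes most like the markers were the 5 with the highest Pearson correlation. Groups were compared with the two-sided Wald test of DESeq2 1.42.0 in R 4.3.3, as in the study, which used DESeq2 1.30.1. Pairs of groups were fitted alone, and the genotype over all treatments on 17 libraries with treatment as a term. A gene was called at a Benjamini-Hochberg adjusted p under 0.05, with independent filtering, over all genes tested. Fold changes are not shrunken, and 95% intervals are the log2 fold change ± 1.96 SE. Levels, correlations and relative levels used log2 of normalized counts plus 1 where a log scale is named. The scripts were tested on simulated data, in which more of the calls by DESeq2 were false than the adjusted p threshold implies, so single calls near the threshold are less certain than their adjusted p.

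Alternatives tried were edgeR 4.0.16 (quasi-likelihood), TMM scaling, keeping genes that reached 10 counts in 2 libraries or more, 1 fit of all libraries, the replicate number as a block, a GC correction, size factors from the other granule genes, lane as a term and leaving out each library. The fit within lane 4 and the fits without libraries of high choroid plexus level (over 5000 normalized counts summed over 6 genes) were added after the data were seen. Upstream sequences were taken from RefSeq (GRCm38.p6), which matched 9 of the 10 markers.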

Additional observations from a re-analysis of the deposited data

How the results depend on the processing

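With edgeR, TMM scaling, the count filter, the GC correction or any single library left out, 6 markers were called over all treatments, as in the main analysis. With lane as a term 1 was called, and within lane 4 it was 3, where fewer libraries entered. Scaling to the other granule genes raised the median log2 fold change of all genes from 0.01 to 0.33 over all treatments and the markers called to 10, 8 of them higher; it turned Dsp to 0.27, Stxbp6 to 0.13, Maml2 to 0.25 and Grik4 to 0.13, all less than that shift. Under this scaling the markers called became 6 in Sal, 9 in PTZ0 and 6 in PTZ45, while 34.4%, 47.9% and 33.1% of all genes were called. In Sal, 1 fit of all 17 libraries called 4 markers in place of 2, and in PTZ0 the fit without libraries of high choroid plexus level called 3 in place of 5. In PTZ45, leaving out single libraries gave 1 to 3 markers, 1 without Control PTZ45 replicate 2. Further sign changes were those of Glis3 (-0.063 with lane as a term, and -0.0145 to 0.0589 over single libraries left out, below 0 without replicate 1 of Control Sal or of Control PTZ0 or replicate 3 of CBP-ifKO Sal), and within lane 4 those of Dsp (0.11), Calb1 (-0.0481) and the called Lrrtm4 (-0.00706). The cause was not tested. Trpc6 kept its direction and its call in each of 26 alternatives over all treatments, between -0.91 and -0.46. The count of 0 markers in the 6 treatment comparisons and the interaction did not change in any alternative run.

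Same-numbered libraries did not deviate together, with correlations between -0.52 and 0.48 over 24 pairs, 8 of them above 0.1, so the numbers as labelled give no pairing. Control PTZ45 replicate 2 has the number 3 in the name of its count column, and was taken as number 2 here and in the replicate block. With the replicate block, 6 markers were called over all treatments, 3 in Sal, 4 in PTZ0 and 2 in PTZ45, without Tdo2 in PTZ0 (no adjusted p) and in PTZ45, and 0 in each treatment comparison and in the interaction. Over all genes, calls in Sal went from 40 higher and 266 lower to 10 and 112 with the block, 26 and 131 by edgeR and 127 and 487 in 1 fit of all libraries. In PTZ0 they went from 182 and 670 to 57 and 353 with the block and to 20 and 140 without libraries of high choroid plexus level, in PTZ45 from 38 and 430 to 2 and 100 and to 10 and 213, and over all treatments without those libraries from 1449 and 2157 to 625 and 1245.

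With 2 or 3 mice in a group and 17 to 133 counts a library, differences in Tdo2 within single treatments were the least certain.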
